A study of Mus musculus with 6 samples.

Results

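The control aorta of the series is represented by 2 of its 6 libraries, titled Ctrl1 and Ctrl2, which were taken by title and not by any measured value. Both carry the same labels: aorta of wild type C57BL/6 mice, age 2-month (8 weeks in the protocol text), with no surgery, diet or deletion named for them. The other 4 libraries, from ApoE knockout mice and from mice with chronic kidney disease, enter no comparison here. Polyadenylated RNA was sequenced, and the labels do not say whether Ctrl1 and Ctrl2 came from separate animals or from pools, so the spread between them may be technical. Genes were ranked by the mean of both libraries in FPKM, fragments or reads per kilobase of exon scaled to library depth, which allows levels of different genes to be compared. With 1 library on each side there is no replicate check on a difference between Ctrl1 and Ctrl2, and none was tested.

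The aortic wall is built of concentric layers. An endothelial sheet lines the lumen, a media of smooth muscle cells alternates with elastic lamellae, and an adventitia of fibroblasts, collagen, resident macrophages, nerves and small vessels surrounds it, next to perivascular fat. Contractile smooth muscle genes are driven by serum response factor, which binds the CArG box of many of their promoters, together with its cofactor myocardin.

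The libraries held 16.6 and 15.1 M reads by the scale on which the deposited values become whole reads, and at 2 kb of exon a single read counted for 0.0300 FPKM in Ctrl1 and 0.0330 FPKM in Ctrl2. Of 27815 genes in the files, 12838 averaged 1 FPKM or more, 4796 at least 10, 440 at least 100 and 26 at least 1000. Protein-coding genes were 11304 of the 12838, or 88.1%. Across the tested genes with a GC value (n = 12815) the libraries ranked genes alike, with a Spearman rho of 0.974 given as a description. Over 10939 genes a chi-square of their recovered reads was 20.8 times its degrees of freedom, so they are not copies of 1 library. The Y-linked Ddx3y stood at 23.9 and 28.4 FPKM and Eif2s3y at 18.6 and 22.3 FPKM, Kdm5d and Uty at 1.82 to 2.24 FPKM, and Xist, the X-inactivation RNA, at 0.0402 and 0.0479 FPKM, so both libraries carried male transcripts and almost no Xist.

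The most abundant nuclear transcripts were those of a contractile, matrix-secreting wall. Acta2, the smooth muscle alpha-actin (chromosome 19, 34241090 to 34255590, build GRCm38), stood at 6034 FPKM in Ctrl1 and 5402 FPKM in Ctrl2, above every other nuclear gene with at least 200 bases of exon. Mgp, matrix Gla protein, an inhibitor of calcification secreted by smooth muscle and cartilage cells (chromosome 6, 136872435 to 136875823), was second by the mean at 2490 and 2964 FPKM. Its neighbours in the order were Tmsb4x, an actin-monomer binding peptide, at 2669 and 2633 FPKM, and Myl9, the regulatory light chain of smooth muscle myosin, at 2651 and 2486 FPKM. The values of these 3 genes overlap between libraries, so their order among themselves is not resolved, whereas Acta2 was higher than each of them in both libraries.

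Further down the first 30 stood iron storage and translation genes, namely Fth1 (2144 and 1906 FPKM) and Eef1a1 (1769 and 1755 FPKM), and the secreted proteins Sparc (1617 and 1746 FPKM), Igfbp7 (1873 and 1216 FPKM) and the protease inhibitor Cst3 (1626 and 1402 FPKM). Igfbp7 and the small heat shock protein Hspb1 (1319 and 899 FPKM) were the members of the 30 with the widest spread in the plot of the 30 genes. Actin-regulating and cytoskeletal genes made a block near 1000 FPKM: Dstn (1447 and 1422), Gsn (1255 and 1171), Vim (1225 and 1142), Flna (1202 and 1092), Myl6 (1116 and 1050) and Myh11, the smooth muscle myosin heavy chain (1123 and 1039). The remaining members by the mean were Lgals1, Cpe, Csrp1, Rps15, Csrp2, B2m, Rps3a1, Bgn, Cytl1, Rpl8, Rps23, Apoe and Tpt1, with Rplp1 placed among the first 10. Cytl1, a secreted protein known from cartilage, stood at 821 and 642 FPKM, and Apoe, the lipoprotein ligand, at 756 and 627 FPKM.

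**Figure D1:**
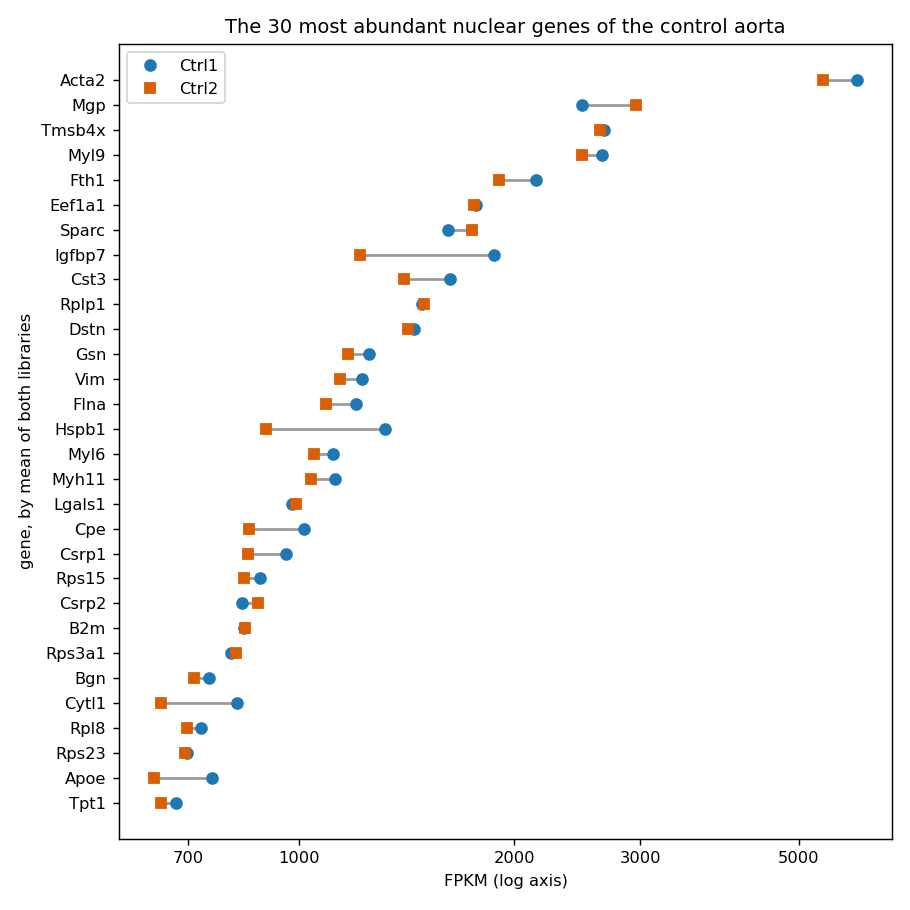
FPKM of the 30 most abundant nuclear genes (log axis) in Ctrl1 (circles) and Ctrl2 (squares), joined by a line and ordered by the mean of both. Acta2 lies apart at 6034 and 5402 FPKM, and Igfbp7 (1873 and 1216 FPKM) and Hspb1 (1319 and 899 FPKM) have the longest lines.

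Transcripts were concentrated in few genes. The 30 genes held 13.2% of all summed FPKM. Of the sum over nuclear genes they held 15.7% in Ctrl1 and 14.9% in Ctrl2. Over the nuclear genes alone, with unnamed gene models kept in, the most abundant 10 held 8.57% of the sum, 100 held 26.0% and 1000 held 59.1%. Some of the 30 share many of their 50-base exon windows with other annotated genes. The shares were 71.0% for Rps3a1, 60.6% for Eef1a1, 57.8% for Rplp1 and 51.7% for both Rps23 and Hspb1. The levels of these genes depend on how the authors' counting treated reads that fit several genes. Acta2, Mgp, Tmsb4x and Myl9 share none.

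The promoters of 3 contractile genes show the sequence element named above. Promoters in RefSeq's table for GRCm38.p6 span 250 bases before to 50 after the start site, and 21 of the 25 genes of the contractile list were matched. Myh11 and Tagln were among those not matched, so their promoters were not searched. A CArG box, taken as CC, then 6 bases that are each A or T, then GG, searched on both strands, was found in 3 of 24 contractile promoters (12.5%) and in 535 of all 32851 promoters (1.63%). TATAAA, searched in the same way, was found in 12.5% of the contractile promoters and 13.6% of all. The box lies in the promoters of Myl9 (2651 and 2486 FPKM), Myl6, an essential myosin light chain (1116 and 1050 FPKM), and Vcl, vinculin of the focal adhesion (25.5% of whose exon bases overlap Ap3m1). Their 250 bases upstream of the start site follow, with the CArG box in capitals. They set a sequence beside 2 of the 30 most abundant genes. The Myl6 window lies inside the annotated gene (chromosome 10, 128490860 to 128494145), so its start site is internal to the gene. The FPKM of Myl6 covers the whole gene and not this start site alone.
Myl9, chr2:156775214-156775463, plus strand: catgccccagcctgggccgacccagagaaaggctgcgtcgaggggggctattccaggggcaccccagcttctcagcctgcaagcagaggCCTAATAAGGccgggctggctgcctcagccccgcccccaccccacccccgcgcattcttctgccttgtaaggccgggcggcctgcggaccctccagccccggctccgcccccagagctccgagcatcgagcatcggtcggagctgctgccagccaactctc
Myl6, chr10:128493010-128493259, minus strand: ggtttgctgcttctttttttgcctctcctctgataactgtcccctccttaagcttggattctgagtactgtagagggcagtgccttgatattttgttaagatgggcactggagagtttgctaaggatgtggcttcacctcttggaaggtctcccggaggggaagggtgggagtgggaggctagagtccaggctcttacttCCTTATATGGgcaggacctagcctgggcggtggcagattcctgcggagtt
Vcl, chr14:20929148-20929397, plus strand: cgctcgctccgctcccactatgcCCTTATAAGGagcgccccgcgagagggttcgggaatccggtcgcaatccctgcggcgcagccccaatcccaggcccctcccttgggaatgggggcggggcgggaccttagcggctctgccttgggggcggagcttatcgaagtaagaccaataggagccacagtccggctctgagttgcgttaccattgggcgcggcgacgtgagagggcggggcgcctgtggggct
The box starts 161 bases before the start site in Myl9, 50 in Myl6 and 227 in Vcl. A match is a description of the letters, and the absence of one says only that they are not in this window.

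The contractile list had the highest median and the highest sum of the 20 cell type lists. Of its 25 members, 23 had at least 1 FPKM and 17 at least 100 FPKM, and their sum was 5.68% of the nuclear sum in Ctrl1 and 5.28% in Ctrl2. After Acta2, Myl9, Flna, Myl6 and Myh11 came Tpm2 (621 and 548 FPKM), a tropomyosin, and Cnn1 (585 and 500 FPKM), calponin. Pln and Casq2, calcium-store proteins, were the 2 members under 1 FPKM, at 0.261 and 0.0718 FPKM and at 0.132 and 0.169 FPKM.

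Tagln, transgelin, a standard marker of contractile smooth muscle, stood at only 9.37 and 9.24 FPKM. Of its exon bases, 67.9% lie within another annotated gene, Gm48529, and 47.7% of its windows occur in other genes. Pln has a like overlap, with 64.7% of exon bases in Gm47644. Housekeeping and metal-binding genes chosen here after their values were seen were low as well: Gapdh was at 17.1 and 18.9 FPKM with 27.2% of its windows shared among 196 other genes, Ftl1 at 35.2 and 34.2 FPKM with 91.3% of windows shared, and Mt2 at 0 and 0.112 FPKM with 73.5% of exon bases overlapping Gm45774. The shares of the abundant Eef1a1 and Rplp1 are given above. The part of overlap in these levels was not tested, and the levels of these genes are uncertain.

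Endothelial markers were present nearly as a set. Of 22 members, 21 had at least 1 FPKM and the list sum was 736 FPKM in Ctrl1 and 606 FPKM in Ctrl2. Pecam1, the junctional adhesion molecule CD31, stood at 223 and 187 FPKM, Eng, a TGF-beta co-receptor, at 50.3 and 44.1 FPKM, Vwf, von Willebrand factor, at 42.3 and 37.5 FPKM, and Mmrn2 at 37.9 and 31.3 FPKM. The list's median was 27.3 and 22.5 FPKM, against 245 and 208 FPKM for the contractile list. The adventitial fibroblast list had medians of 190 and 147 FPKM and the pericyte list 33.9 and 31.6 FPKM. Robo4 was the 1 member under 1 FPKM. In bulk tissue fewer cells of a type and less RNA per cell cannot be told apart. Lymphatic endothelium was less clear, since Lyve1, also made by resident macrophages, stood at 40.4 and 44.1 FPKM while Prox1, the transcription factor that defines the lineage, was at 0.136 and 0.205 FPKM and Ccl21a, 71.1% of whose windows occur in other genes, was listed at 0 in both.

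Adventitial fibroblast genes were all present, 20 of 20 at 1 FPKM or more, with 14 at 100 or more. Gsn led the list, followed by Clec3b, tetranectin (476 and 383 FPKM), Col1a1 (441 and 391 FPKM) and Dcn, decorin (438 and 333 FPKM). Collagen genes and Gsn are also made by smooth muscle cells. Of the pericyte list 9 of 10 members reached 1 FPKM, led by Mcam (447 and 413 FPKM), Rgs5, a G-protein regulator (246 and 264 FPKM), Cspg4 (66.3 and 57.7 FPKM) and Pdgfrb (51.4 and 44.7 FPKM). Arterial smooth muscle also expresses these leaders.

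Resident myeloid cells were visible at a lower level. Of 18 macrophage markers 16 had at least 1 FPKM: Lyz2, lysozyme, stood at 249 and 235 FPKM, and the complement subunits C1qa, C1qb and C1qc at 136 and 119, 103 and 92.9, and 58.3 and 49.5 FPKM. Itgam, 72.2% of whose windows occur in another annotated gene, and Trem2 were under 1 FPKM. Of 10 genes on the dendritic cell and antigen presentation list, 7 had at least 1 FPKM, and 4 of these were the class II genes Cd74 (231 and 233 FPKM), H2-Eb1 (133 and 136), H2-Ab1 (114 and 105) and H2-Aa (88.1 and 92.0). The mast cell proteases Mcpt4 (11.0 and 15.3 FPKM), Tpsb2 (7.67 and 11.8), Cma1 (5.26 and 7.14) and Cpa3 (4.08 and 6.05) were the 4 members of an 8-gene list above 1 FPKM.

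Markers of neighbouring tissues were mostly low apart from those of fat. Of the Schwann cell list 4 of 10 members reached 1 FPKM, and only Pmp22, which many mesenchymal cells express, was high (103 and 101 FPKM), followed by S100b at 4.13 and 5.12 FPKM and Prx at 3.55 and 3.29 FPKM, with Sox10 and Ngfr under 1. Of 9 neuronal genes 3 reached 1 FPKM, with Uchl1 at 32.7 and 34.3 FPKM, Stmn2 at 1.90 and 1.53 FPKM and Tubb3 at 1.13 and 1.06 FPKM. Mesothelium had 1 of 9, Gpm6a. Of 10 cardiomyocyte genes 5 reached 1 FPKM, none above 3.30 FPKM (Ryr2 in Ctrl2), and Myh6, the atrial and ventricular myosin of the mouse heart, stood at 0.331 and 0.239 FPKM. Of 11 skeletal muscle genes 5 did, led by Casq1 (39.0 and 43.2 FPKM), then Tnnt3 (2.73 and 3.84), Acta1 (1.49 and 3.40) and Mylpf (1.36 and 2.61). White adipocyte genes reached 1 FPKM for 13 of 14 members and brown adipocyte genes for 7 of 9, but at levels that differed between the libraries, as described further on.

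**Figure D2:**
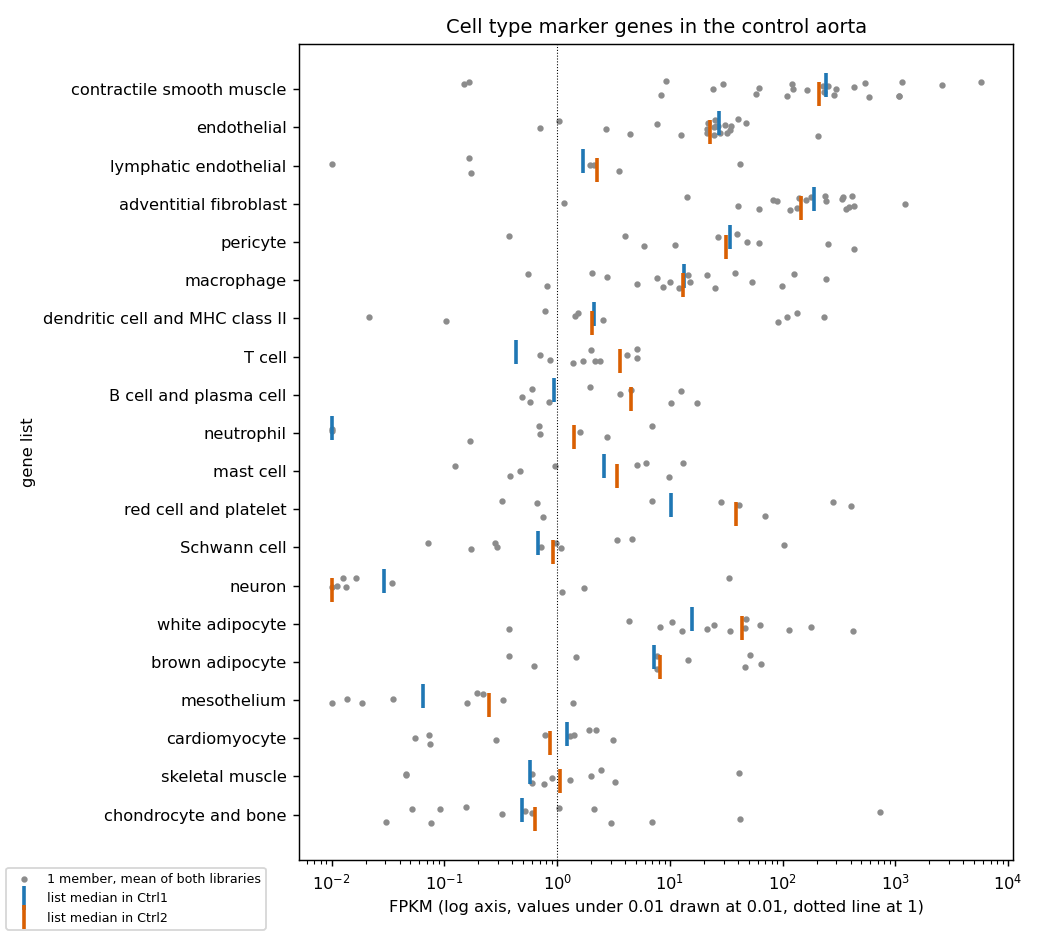
Mean FPKM of both libraries for each member of the 20 cell type lists (grey points, log axis, values under 0.01 drawn at 0.01), with the list median in Ctrl1 (blue) and Ctrl2 (orange) and a dotted line at 1 FPKM. The contractile list has the highest medians, 245 and 208 FPKM, and the T cell, neutrophil, red cell and white adipocyte lists have medians that lie apart between libraries.

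Markers of cartilage and bone were mostly low in the young wall. Of 14 members 6 had at least 1 FPKM, and after Cytl1 these were Comp, a matrix protein of cartilage and tendon (43.9 and 39.5 FPKM), Acan, aggrecan (4.84 and 8.99), Alpl, tissue alkaline phosphatase (3.11 and 2.93), Phex and Sox9. Runx2, the transcription factor that starts bone formation, was at 0.36 and 0.284 FPKM, its successor Sp7 at 0.0620 and 0.0909 FPKM and osteopontin, Spp1, at 0.474 and 0.561 FPKM. The list of mineralisation inhibitors and phosphate handling was mixed, with medians of 5.08 and 5.42 FPKM, 3 of its 18 members at 100 FPKM or more and 5 under 1. The 3 were Mgp as given, Sost, a secreted WNT antagonist best known from osteocytes, at 577 and 443 FPKM, and Gas6, a vitamin K-dependent ligand, at 275 and 216 FPKM. Ank, a pyrophosphate exporter, was at 26.4 and 28.5 FPKM. Under 1 FPKM were Spp1, Vkorc1, Phospho1, Abcc6 and Kl. Of these, Vkorc1 shares 47.7% of its exon bases with Gm21974, and Phospho1 shares 86.6% of its windows with other genes. The levels of both are uncertain.

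Genes of the elastic fibre were expressed almost as a set. Of 19 members 18 had at least 1 FPKM and 7 at least 100, the exception being Fbn2, a fibrillin of the fetal wall, at 0.0115 and 0.0126 FPKM. Eln, elastin, stood at 501 and 410 FPKM, Mfap4 at 476 and 489 FPKM, Ltbp4, which helps fibres assemble, at 292 and 270 FPKM, and Ltbp3 at 122 and 119 FPKM.

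Among 11 fibrillar collagen chains 3 dominated: Col1a1 (441 and 391 FPKM), Col1a2 (376 and 352 FPKM) and Col3a1 (322 and 345 FPKM). Each of the 3 kept its place in both libraries. Col5a2 followed at 64.9 and 64.7 FPKM, and the cartilage chains Col2a1 and Col11a1 and the rare Col24a1 were under 1 FPKM. Of 23 basement membrane genes 19 reached 1 FPKM, led by Col18a1 (316 and 346 FPKM), Lamb2 (197 and 188), Col4a1 (142 and 151) and Col4a2 (125 and 131). Under 1 FPKM were, among others, the laminin chains Lama3, Lamb3 and Lama1. Of 24 other collagens 11 reached 1 FPKM, led by the microfibrillar chains Col6a1 (196 and 182 FPKM) and Col6a2 (104 and 97.7), then Col14a1 (74.6 and 78.9) and Col6a3 (42.0 and 41.9).

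Small leucine-rich proteoglycans, which bind collagen fibrils, were nearly all abundant, with 12 of 13 at 1 FPKM or more: Bgn stood at 749 and 714 FPKM, Ogn at 491 and 410, Dcn at 438 and 333 and Prelp at 144 and 139. The list of large proteoglycan and hyaluronan genes was lower by contrast, with 7 of 12 at 1 FPKM or more. Its highest member, Srgn, which is not a large proteoglycan, stood at 26.8 and 23.7 FPKM. Vcan, versican (18.8 and 21.1), Cd44 (7.50 and 6.80) and Acan followed. Of the 29 matricellular and adhesive proteins 24 reached 1 FPKM and 14 reached 100, led by Mgp, Sparc, Igfbp7 and the growth-responsive Ccn2 (575 and 638 FPKM, 23.2% of whose exon bases overlap Gm15270).

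Collagen processing followed the same course. Of 21 members 20 reached 1 FPKM, led by the collagen chaperone Serpinh1 (520 and 429 FPKM), P4hb (235 and 225), the elastin crosslinker Loxl1 (109 and 102) and Pcolce (102 and 78.8). Metalloproteases were lower, with 20 of 29 at 1 FPKM or more and none of the 29 with a mean of 100, headed by Adamts1 (80.5 and 113 FPKM), Mmp23 (80.7 and 70.3), Mmp2 (67.5 and 63.4) and Mmp3, stromelysin (57.6 and 35.4). Mmp7 and Mmp10 were at 0 in both libraries, and Mmp12 and Mmp13 stayed under 1 FPKM. Inhibitors of proteases were higher, with 6 of 12 at 100 or more, as Cst3 was followed by Serping1 (386 and 298 FPKM) and Timp2 (374 and 272). Of 19 integrins 15 reached 1 FPKM, led by Itgb1 (490 and 500 FPKM), its partners Itga8 (414 and 440) and Itga5 (238 and 205), and Itgb5 (185 and 169).

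**Figure D3:**
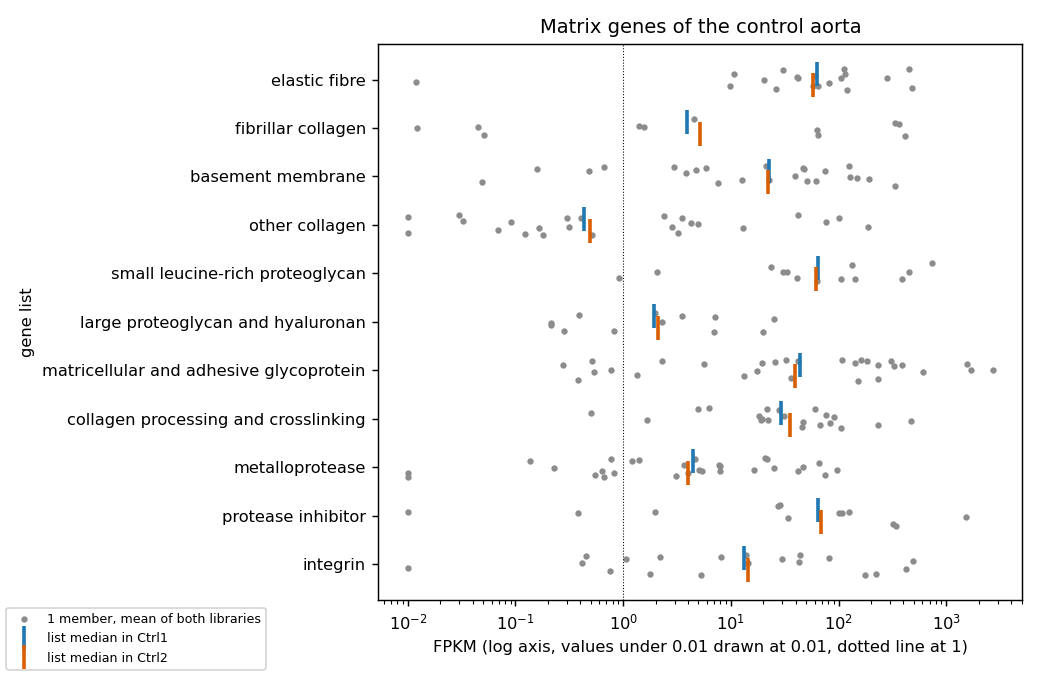
Mean FPKM of both libraries for each member of the 11 matrix lists (grey points, log axis, values under 0.01 drawn at 0.01), with list medians in Ctrl1 (blue) and Ctrl2 (orange) and a dotted line at 1 FPKM. Elastic fibre genes and small leucine-rich proteoglycans lie almost wholly right of the line, while 13 of 24 other collagens lie left of it.

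Of 325 transcription factors and cofactors listed, 248 had at least 1 FPKM, 116 at least 10 and 6 at least 100, with a median of 5.76 FPKM. Csrp1 (958 and 850 FPKM) and Csrp2 (832 and 878 FPKM), LIM proteins that act as smooth muscle cofactors as well as on the cytoskeleton, stood first. The inhibitors of bHLH factors Id1 (215 and 224 FPKM), Id3 (240 and 196) and Id2 (113 and 85.9) came next, with Nr4a1, an immediate early nuclear receptor, at 183 and 117 FPKM and Ctnnb1, beta-catenin, at 98.6 and 103 FPKM. The 13 remaining of the first 20 were Atf4, Klf9, Epas1, Nfe2l1, Tsc22d3, Osr1, Per2, Tef, Klf2, Klf6, Xbp1, Junb and Zbtb16, between 36.4 FPKM (Junb in Ctrl2) and 87.8 FPKM (Atf4 in Ctrl1). Srf, which binds the CArG box, was at 32.9 and 23.0 FPKM, and its cofactor Myocd at 14.4 and 11.9 FPKM.

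GATA factors were represented by Gata6, a smooth muscle and endothelial factor, at 34.9 and 25.9 FPKM and Gata2, an endothelial and blood factor, at 12.8 and 8.37 FPKM. Gata3 was at 1.09 and 0.830 FPKM, Gata1 and Gata4 at 0.0154 to 0.152 FPKM, and Gata5 at 0 and 0.0403 FPKM. Other families had their highest members as follows. Erg, an endothelial factor, led the ETS genes at 21.6 and 20.9 FPKM, Sox18 the SOX and T-box genes at 38.7 and 25.1 FPKM, Foxc2 the forkhead genes at 31.1 and 18.96 FPKM, and the sterol sensor Nr1h2 the nuclear receptors at 41.4 and 38.3 FPKM. Within the clock list Per2 (64.9 and 65.6 FPKM) and Tef (64.7 and 64.7) were high, then Per1 (41.0 and 47.4) and Nr1d2 (42.7 and 45.1), while the activators Arntl (0.328 and 0.413 FPKM) and Npas2 (0.765 and 0.400 FPKM) were under 1. Per and Nr1d genes repress or oppose the Arntl loop and peak at another time of day, and the labels give no hour of dissection.

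HOX genes, whose position in each cluster follows the body axis, gave a regional pattern. Of 35 found, 19 had at least 1 FPKM. By number in the cluster, genes 3 to 9 held 16 of these 19 among 22 genes and a summed mean of 97.3 FPKM, and genes 10 to 13 held 1 of 9, Hoxa10, at 1.23 and 0.848 FPKM. Clusters A and B carried nearly all of it, with summed means of 47.8 and 50.2 FPKM, against 5.53 FPKM for cluster C and 1.89 FPKM for cluster D. Hoxb6 was highest at 21.3 and 12.8 FPKM, followed by Hoxa5 at 17.4 and 9.89, Hoxb4 at 11.8 and 8.26, Hoxa7 at 10.3 and 9.37 and Hoxb7 at 10.2 and 6.29 FPKM.

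Between 2 and 8 FPKM by the mean of both libraries lay Hoxa6 (7.43 and 4.84), Hoxa3 (6.81 and 4.71), Hoxa2 (6.47 and 4.47), Hoxb5 (5.26 and 3.58), Hoxb8 (4.68 and 2.91), Hoxb3 (3.93 and 3.11), Hoxa4 (3.77 and 2.45) and Hoxb9 (3.27 and 2.28). Hoxa9, Hoxc4, Hoxc6 and Hoxc8 lay between 1.34 and 2.23 FPKM in each library. Listed at 0 in both libraries were Hoxa11, Hoxa13, Hoxb1, Hoxb13, Hoxc11 and Hoxd13, and the 9 others under 1 FPKM were Hoxb2, Hoxc5, Hoxc9, Hoxc10, Hoxc13, Hoxd3, Hoxd4, Hoxd9 and Hoxd10, together with Hoxd8 at 1.07 and 0.746 FPKM. The kit did not mark strand, and Hoxb3 (52.9% of exon bases), Hoxa3 (27.1%) and Hoxa7 (20.4%) overlap annotated antisense genes, so their values are uncertain. Of the windows of Hoxd3, 86.3% occur in other annotated genes. The annotated span of Hoxd4 lies inside that of Hoxd3, and those of Hoxc6, Hoxc8 and Hoxc9 inside that of Hoxc5. The low sums of clusters C and D are therefore uncertain too.

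**Figure D4:**
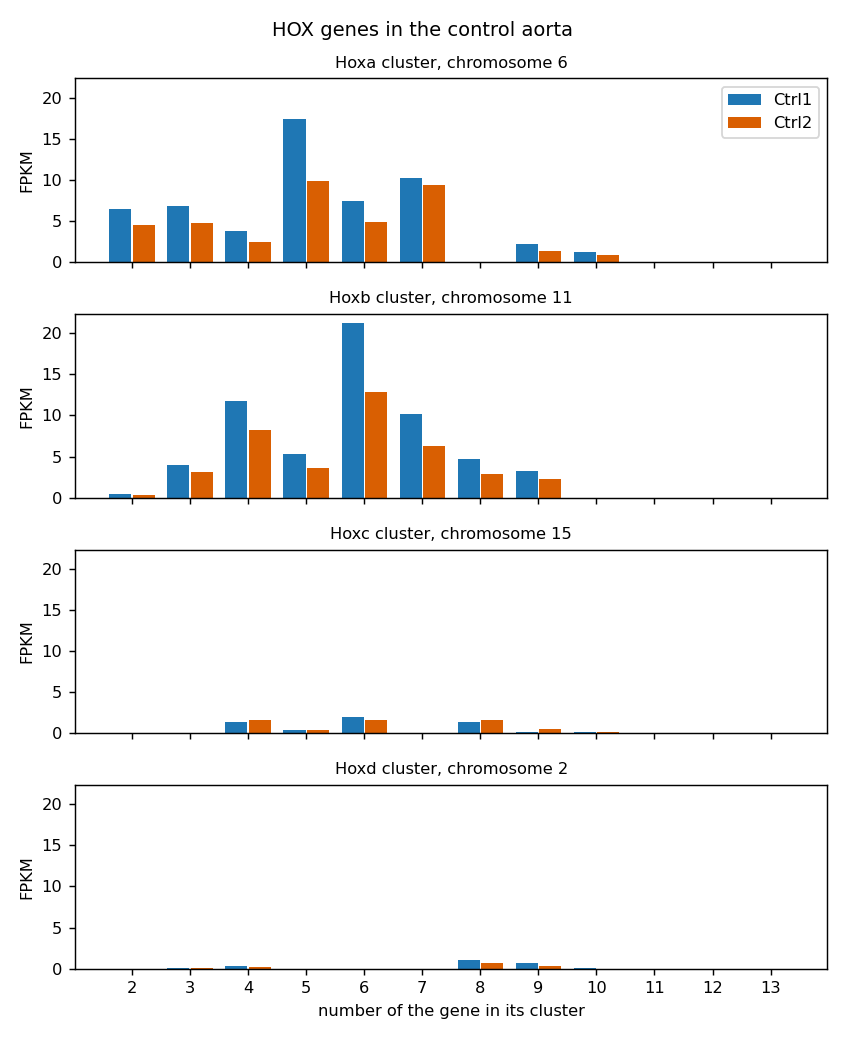
FPKM of HOX genes numbered 2 to 13 in Ctrl1 (blue) and Ctrl2 (orange), by number in the A, B, C and D clusters. Bars reach 21.3 FPKM (Hoxb6 in Ctrl1), are concentrated between genes 3 and 9 of clusters A and B, and are near 0 in cluster D.

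Genes of excitability and vascular tone were present at moderate levels. Of 26 ion channel and calcium-handling genes 20 reached 1 FPKM, led by Atp2a2, the calcium pump of the store (123 and 118 FPKM), Kcnmb1, the smooth muscle subunit of the large-conductance potassium channel (49.83 and 50.03), Atp2b4 (26.6 and 26.8) and Kcnj8 (28.4 and 24.7). Of 35 vasoactive receptor and cGMP genes 24 did, led by Npr1, the natriuretic peptide receptor (76.2 and 69.3 FPKM), Gucy1b1, a subunit of the nitric oxide receptor (46.1 and 44.4), Npr2 (35.3 and 34.2) and the adrenergic receptor Adra1d (33.7 and 24.7). The angiotensin receptor Agtr1a was under 1 FPKM (0.216 and 0.522). Growth factor genes were led by Sost, Dkk3 (141 and 149 FPKM), Sfrp2 (178 and 107) and Pdgfd (58.1 and 57.3), with 41 of 46 at 1 FPKM or more. Among growth-related and imprinted genes Gpc3, a proteoglycan co-receptor, stood at 75.1 and 77.6 FPKM, then Mdk at 18.2 and 17.1 FPKM. Igf2, 75.9% of whose windows occur in another annotated gene, was at 3.40 and 2.80 FPKM. H19 was at 0.304 and 0.752 FPKM and Dlk1 at 0.0212 and 0.0350 FPKM.

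Noncoding and organelle transcripts were ranked apart. Bvht and Carmn, long noncoding RNAs of the smooth muscle locus that holds the Mir143 and Mir145a hairpins, stood at 576 and 425 FPKM and at 201 and 161 FPKM, above Malat1 (61.3 and 70.0) and Neat1 (56.9 and 48.2). The hairpins themselves read 1744 and 1412 FPKM (Mir143) and 1750 and 1482 FPKM (Mir145a), but over 63 and 70 bases, so that FPKM over such short genes is not comparable with the rest and does not measure the mature miRNA. Above both by the mean stood Gm23935, a miRNA model of 57 bases, at 2309 and 13223 FPKM. It is part of the sum over all genes but not of the nuclear sum. Of the mitochondrial genes, mt-Co1 stood at 9342 and 12486 FPKM, mt-Cytb at 5590 and 7283, mt-Nd1 at 3673 and 5103, mt-Nd2 at 2473 and 3334, mt-Nd4 at 1906 and 2387, mt-Nd5 at 1419 and 1840 and mt-Nd6 at 712 and 898 FPKM. The other 6, mt-Co2, mt-Co3, mt-Atp6, mt-Nd3, mt-Nd4l and mt-Atp8, lay between 1.18 and 91.8 FPKM. Of these 6, all but mt-Atp8 share 96.7% to 100% of their windows with another annotated gene, and mt-Cytb and mt-Nd1 share none. Among the higher genes, mt-Co1 shares 51.3% and mt-Nd4 62.4% of their windows. The part of shared sequence in those levels was not tested.

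Most genes agreed closely between Ctrl1 and Ctrl2, while several lists of blood, lymphoid and fat genes were higher in Ctrl2. On the log2(FPKM + 1) scale, where changes of low genes appear smaller than they are, the difference (Ctrl2 minus Ctrl1) had a median of −0.00 and an SD of 0.33 over the 12838 genes averaging 1 FPKM or more, and the median gene differed 1.08-fold. At least 2-fold on that scale, 184 genes were higher in Ctrl2 (1.43% of those tested) and 60 were lower (0.467%). Among the 60 lists, members past 2-fold were common in 6: T cell 8 of 8 tested, B and plasma cell 5 of 6, neutrophil 3 of 3, red cell and platelet 5 of 6, white adipocyte 9 of 13 and brown adipocyte 4 of 7, all higher in Ctrl2. Tested are members averaging 1 FPKM or more, and some reached that only through Ctrl2. For a member near 0 in Ctrl1 that filter by itself fixes a difference past 2-fold, so these counts are a description only. Over all 10 T cell genes the median was 0.433 FPKM in Ctrl1 and 3.61 FPKM in Ctrl2. Over all 8 neutrophil genes it was 0 and 1.40 FPKM. The lists hold 10, 10, 8, 9, 14 and 9 genes, and the untested ones include the T cell gene Cd3e (0.147 and 1.57 FPKM), 4 B cell genes and 5 neutrophil genes, of which Ly6g was at 0 in both libraries. These lists and families hold only a part of the genes past 2-fold. Of the 184 higher genes, 16 were on the T, B, neutrophil and mast cell lists, 5 on the red cell list, 13 on the fat lists, and 22, some of them also on those lists, had immunoglobulin or T cell receptor symbols. None of the 60 lower genes was in these sets.

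T cell genes were low in Ctrl1 and higher in Ctrl2. The summed level of the 10 genes was 5.32 FPKM in Ctrl1 and 45.9 FPKM in Ctrl2. Cd8a stood at 0.611 and 9.66 FPKM (37 and 532 reads, a ratio of 15.8 with a 95% counting interval of 11.3 to 22.7), Trac at 0.771 and 7.56 FPKM (a ratio of 9.80, 5.39 to 19.6) and Lck at 1.23 and 9.02 FPKM (a ratio of 7.33, 5.58 to 9.78). These intervals cover counting error only.

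Genes used by developing lymphocytes were chosen after their values were seen. Rag1, the recombinase of receptor assembly, had 0 reads in Ctrl1 and 506 in Ctrl2 (5.06 FPKM), at least 185-fold higher against a floor of 3 reads in Ctrl1, with the count in Ctrl2 taken as exact here and for the next genes. Dntt, which adds bases at receptor joints, had 0 and 344 reads (9.90 FPKM), at least 126-fold higher, and Rag2 0 and 32 reads, at least 11.7-fold. Ptcra, the pre-T-cell receptor chain, had 0 and 7 reads and Ccr9 had 5 and 134. B cell genes moved less far, Cd79a being at 1.24 and 7.75 FPKM and Cd79b at 1.34 and 5.86 FPKM. Neutrophil genes were S100a9 at 1.27 and 12.7 FPKM, S100a8 at 0.433 and 5.14 FPKM and Ngp at 0 and 3.19 FPKM (0 and 59 reads).

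Haemoglobin genes were higher in Ctrl2: Hba-a2 stood at 10.3 and 46.1 FPKM, Hbb-bs at 163 and 641 FPKM (a ratio of 3.93, counting interval 3.75 to 4.13) and Hba-a1 at 118 and 440 FPKM. Hba-a1 and Hba-a2 are near-identical copies, so the split between them is uncertain. Platelet Pf4 was not higher, at 44.1 and 38.2 FPKM. Macrophage genes did not move with the blood genes, as all 16 tested were lower in Ctrl2, none past 2-fold, with a median of −0.12. Over all tested genes, 6485 of 12838 were lower in Ctrl2 by any amount.

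Fat genes were higher in Ctrl2 as well. The white adipocyte list summed to 613 FPKM in Ctrl1 and 1348 FPKM in Ctrl2, with all 13 tested members positive and a median of 1.25, against −0.00 over all genes. Pck1 stood at 30.7 and 94.2 FPKM (a ratio of 3.07, counting interval 2.90 to 3.24), Dgat2, which makes triglyceride, at 12.4 and 37.1 FPKM, and Lpl, lipoprotein lipase, at 17.7 and 50.01 FPKM. Brown fat genes followed, with Cox7a1 at 6.40 and 22.3 FPKM, Cox8b at 23.0 and 69.5 FPKM and Ucp1, the uncoupling protein that defines brown fat, at 26.3 and 77.4 FPKM. Of the lipid handling list 4 of 19 were past 2-fold, with Scd1, a fatty acid desaturase, at 66.5 and 250 FPKM. Mitochondrially encoded genes were higher in Ctrl2 for all 13 (median 0.36), as were nuclear oxidative phosphorylation genes for 24 of 25 (median 0.27), none past 2-fold. Over all tested genes, 6353 of 12838 were higher by any amount.

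**Figure D5:**
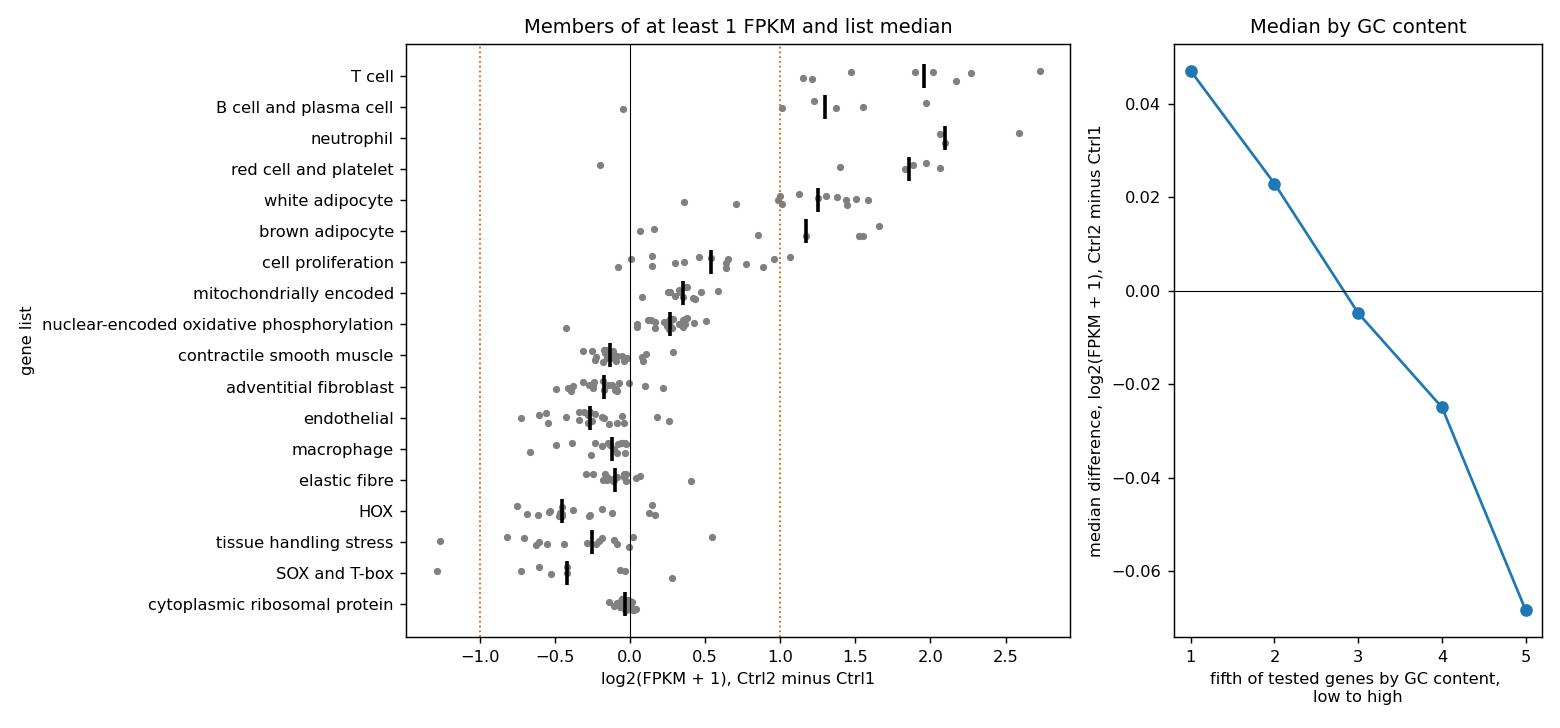
Left, difference in log2(FPKM + 1), Ctrl2 minus Ctrl1, for members averaging 1 FPKM or more of 18 lists (points) with list medians (bars) and dotted lines at 2-fold. T cell, neutrophil and red cell medians, over members some of which reach 1 FPKM only through Ctrl2, lie at 1.96, 2.1 and 1.86. Right, the median difference falls from 0.05 to −0.07 across 5 equal classes of GC content.

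Genes of the wall itself differed by less. Contractile genes were lower in Ctrl2 for 19 of 23 (median −0.13) and endothelial genes for 19 of 21 (median −0.27). Adventitial fibroblast genes were lower for 18 of 20 (median −0.17) and HOX genes for 16 of 19 (median −0.45). None of these was past 2-fold, as were only 0.467% of all tested genes on the lower side. Over all 12838 tested genes, 6485 were lower in Ctrl2 by any amount and 6353 higher. The median difference was −0.05 for genes averaging 100 to 1000 FPKM and −0.06 for those above. GATA genes were lower for 2 of 2 (median −0.49) and SOX and T-box genes for 8 of 9 (median −0.42), of which 1, Tbx1, was past 2-fold. Cell proliferation genes were higher for 14 of 15 (median 0.54), with 1 past 2-fold. The tissue handling list, of heat shock and immediate early genes, was lower for 14 of 16 (median −0.26), with Hspb1 at 1319 and 899 FPKM and Fos, the AP-1 subunit, at 55.4 and 22.5 FPKM.

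The single genes with the largest positive differences included RNAs that normally carry no poly(A) tail. Rn7sk stood at 2.36 and 168 FPKM, CT010467.1, a ribosomal RNA model, at 80.7 and 1212 FPKM and Rpph1, an RNA of ribonuclease P, at 0.754 and 17.0 FPKM. Among genes annotated as protein-coding, Lars2, a mitochondrial leucyl-tRNA synthetase, stood at 5.50 and 77.5 FPKM. Its difference on the log2(FPKM + 1) scale, 3.60, lay between those of CT010467.1 (3.89) and Rpph1 (3.36). The part of ribosomal sequence in the Lars2 values was not tested, so they are uncertain as a level of its mRNA. Rn7sk, CT010467.1, Lars2 and Rpph1 were followed by the lymphoid genes Tcf7 (1.08 and 19.2 FPKM), Cd8a and Cd8b1 (1.05 and 12.5 FPKM). Then came S100a9, Lck and Hba-a2. On the negative side stood Cebpb, an inducible transcription factor (22.1 and 3.87 FPKM), Tmem158 (33.5 and 8.64 FPKM), Tmem160 (46.1 and 14.2 FPKM), Rab5if, the tendon factor Scx (19.2 and 5.87 FPKM), Scgb1a1, Tbx1 (11.6 and 4.16 FPKM), Hnrnpab, Fos and Nrtn. Rab5if, Hnrnpab, Cebpb, Rpph1 and CT010467.1 overlap other annotated genes by 20.7% to 73.9% of exon bases, and their values are uncertain.

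GC content moved with the difference. Its Spearman rho with the difference was −0.21 across genes (n = 12815, genes that share 2 libraries, given as a description), and the highest of 5 equal classes of GC content held 23 of the 60 genes lower in Ctrl2 and 43 of the 184 higher. With the median of genes of like GC content subtracted, 184 genes were higher and 56 lower. The median of the T cell list was 1.956 without that step and 1.962 with it, and that of the white adipocyte list 1.25 and 1.33. Across the 60 lists the step shifted medians by −0.06 to 0.08, so it could not change the sign of medians of this size. Some T cell members reached 1 FPKM only through Ctrl2. Mitochondrial reads were 3.36% of Ctrl1 and 4.49% of Ctrl2. The part of GC content, ribosomal sequence and adjoining tissue in the differences between Ctrl1 and Ctrl2 was not tested.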

How the data were processed

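Polyadenylated RNA of aortas was sequenced with an unstranded kit, per the labels' protocols. The deposited values are named in no header or label; they were read as FPKM, because they become whole reads when multiplied by exon length. In both files identifiers and FPKM values stand stacked in 1 column. GRCm38 and the tools HISAT2 2.1.0, Bowtie2 2.2.3 and TopHat2 are listed per the submitters' processing notes. What each did, and which counter and annotation were used, is not given in the sources used here. Exon lengths and coordinates came from GENCODE M21, matched for 27730 of 27815 identifiers. Multiplied by exon length, 89.6% and 89.8% of values were whole reads within 0.05, which gave the depths. Differences are of log2(FPKM + 1) for genes averaging 1 FPKM or more, counted at 2-fold, with no test, since there is 1 library on a side. Ratio intervals are exact binomial at 95% and cover counting error only.

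Genes named were the 30 most abundant nuclear genes with at least 200 bases of exon, the 13 mitochondrial protein genes, the 4 highest of each of 60 lists, HOX and GATA genes, 20 transcription factors, the 10 largest differences each way with a mean of at least 5 FPKM, the 3 largest in the 6 lists with the most members past 2-fold (at least 25%), and sex chromosome genes. Other genes named were added after their values were seen. A few of the genes so selected are left out of the text. Members and lists were chosen with earlier results of these data known. The calculations were tested on simulated data. Python 3.11.15, pandas 2.3.3 and scipy 1.17.1 were used.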

Additional observations from a re-analysis of the deposited data

How the results depend on the processing

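Genes detected numbered 12743 to 12933 when either library was left out. The 30 genes most abundant in the library kept then held 12.6% to 14.0% of the sum. With mitochondrial genes left out of the sum, the share of the 30 genes was 14.6%, against 13.2%. The counts of genes past 2-fold, 184 higher and 60 lower, became 308 and 134 with a pseudocount of 0.1, 68 and 21 at a mean of at least 5 FPKM, 275 and 102 with no filter, and 434 and 258 at 1.5-fold. Over protein-coding genes alone, an alternative chosen after seeing the data, they were 104 and 22. Other scalings gave 173 to 188 higher and 59 to 68 lower, and centring on GC content, also added later, 184 and 56. Rescaling to TPM shifted the median difference by −0.06 and changed the sign of 7 of the 60 list medians. At 0.1 FPKM 19043 genes were detected, at 1 TPM 15860, and 12309 reached 1 FPKM in both libraries. No paired analysis was possible because a single group was described and no result comes from a test. The difference between Ctrl1 and Ctrl2 cannot be computed without either library. A count of 0 reads allows up to 3 reads, or 0.0901 and 0.0991 FPKM at 2 kb of exon.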
